A study of Homo sapiens with 4 samples.

Results

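The ONECUT family (ONECUT1, ONECUT2 and ONECUT3) was examined in ATAC-seq peak lists of human pancreatic progenitors. Peaks of the 4 lists were merged where they overlapped, and the members were the merged regions that overlap one of the 3 gene bodies of GENCODE release 44 extended by 50 kb on each side. There were 34 such regions among 164301 in the genome, 10 at ONECUT1, 9 at ONECUT2 and 15 at ONECUT3. The progenitors were derived from MEL1, an established human embryonic stem cell line, so all libraries share the background of 1 line. The study's methods name the line they used as MEL1 INS GFP/W, which carries a GFP reporter at the insulin gene. They were kept in EF6 medium, which holds B27, EGF at 50 ng/ml, bFGF at 10 ng/ml and 10 μM 616452, an inhibitor of TGFβ signaling, and both groups received these factors. The control group was given DMSO and the treated group 1 μM I-BET151 for 7 days, with 2 libraries per group of 50000 cells each. The labels do not say whether the 2 replicates came from separate cultures, so p-values measure only the spread between these libraries, which may be technical.

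ONECUT proteins are transcription factors that bind DNA through a cut domain and a homeodomain. ONECUT1, also called HNF6, is made in the developing pancreas, liver and bile duct, and in the pancreas it acts upstream of PDX1 in early progenitors and of NEUROG3 in endocrine precursors. ONECUT2 is a close relative that overlaps with ONECUT1 in endoderm, and ONECUT3 is known mainly from the nervous system and also from gut and pancreas development. I-BET151 blocks the bromodomains with which BET proteins bind acetylated histones. ATAC-seq uses the Tn5 transposase to cut open chromatin, so a peak marks DNA that was accessible, and the comparison addresses whether accessibility at these genes differed after BET inhibition. It measures open DNA and not expression, and more cells with an open site cannot be told apart from a site more open in each cell.

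The lists held 82568 and 38295 peaks for DMSO replicates 1 and 2, and 84995 and 111324 peaks for I-BET151 replicates 1 and 2. DMSO replicate 2 was the shortest list. The reads behind each list, estimated from its genome-wide background, came to 38.7 and 36.6 M with DMSO and 12.5 and 16.0 M with I-BET151. The smallest number of reads at a summit (the pileup) that was called was 10 and 11 with DMSO and 5 and 6 with I-BET151, and a summit below these values is not listed. A peak lay over the start of 8 of 10 pancreatic progenitor markers in all 4 lists. The exceptions were PDX1, which was called in both I-BET151 lists only, and PTF1A, which was called in none. Starts called in all 4 lists were 3 of 6 for liver markers (ALB and AFP in none), 2 of 5 for neurons, 1 of 6 for pluripotent cells (SOX2, with POU5F1 and NANOG in none), 1 of 5 for mesenchyme and 0 of 5 for endocrine cells.

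The sequences below show the DNA under the calls the results turn on. The first pair is the 250 bases before the RefSeq start of ONECUT1 and ONECUT2 on the coding strand (GRCh38.p14), shown because a peak covered both starts, with each CG dinucleotide in capitals. These promoters lie at chr15:52790337-52790586 on the minus strand and chr18:57435124-57435373 on the plus strand.
ONECUT1 promoter: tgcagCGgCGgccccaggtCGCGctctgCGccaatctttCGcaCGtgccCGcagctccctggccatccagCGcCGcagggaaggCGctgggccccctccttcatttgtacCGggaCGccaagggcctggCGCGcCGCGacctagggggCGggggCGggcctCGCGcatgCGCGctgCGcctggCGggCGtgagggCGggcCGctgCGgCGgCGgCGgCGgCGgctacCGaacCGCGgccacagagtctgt
ONECUT2 promoter: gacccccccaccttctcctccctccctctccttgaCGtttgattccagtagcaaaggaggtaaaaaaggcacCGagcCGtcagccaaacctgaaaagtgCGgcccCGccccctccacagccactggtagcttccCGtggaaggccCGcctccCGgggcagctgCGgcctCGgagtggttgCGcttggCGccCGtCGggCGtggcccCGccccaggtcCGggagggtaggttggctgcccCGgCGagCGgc
The ONECUT1 stretch held 37 CG dinucleotides and the ONECUT2 stretch 20, against a median of 11 over 35116 RefSeq promoters, of which 96.0% and 67.6% held fewer. The others reach 100 bases to either side of the summit of the region of each gene that was called only with I-BET151 at the highest fold (among windows free of annotated UTR), of the lost region, called only with DMSO, and of the gained region that holds a ONECUT core motif. They are given on the plus strand of hg38, with matches to a searched motif in capitals.
ONECUT1 gained, chr15:52735627-52735827: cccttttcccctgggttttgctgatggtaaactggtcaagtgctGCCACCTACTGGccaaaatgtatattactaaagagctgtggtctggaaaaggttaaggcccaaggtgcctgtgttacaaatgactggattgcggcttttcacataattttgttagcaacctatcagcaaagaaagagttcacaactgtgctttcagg
ONECUT1 gained with a ONECUT core, chr15:52780662-52780862: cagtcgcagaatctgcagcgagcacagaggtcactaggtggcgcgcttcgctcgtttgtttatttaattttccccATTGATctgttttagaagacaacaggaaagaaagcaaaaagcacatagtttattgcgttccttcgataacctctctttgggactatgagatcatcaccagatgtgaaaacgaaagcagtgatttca
ONECUT1 lost, chr15:52813243-52813443: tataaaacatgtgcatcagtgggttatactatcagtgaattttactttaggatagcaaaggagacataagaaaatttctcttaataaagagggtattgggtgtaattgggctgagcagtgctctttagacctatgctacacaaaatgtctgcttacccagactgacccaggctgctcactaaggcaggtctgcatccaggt
ONECUT2 gained, chr18:57539557-57539757: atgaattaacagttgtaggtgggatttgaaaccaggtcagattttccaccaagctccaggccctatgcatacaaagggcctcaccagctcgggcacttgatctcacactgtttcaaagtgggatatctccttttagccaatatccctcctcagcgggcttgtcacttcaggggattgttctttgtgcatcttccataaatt
ONECUT3 gained, chr19:1826282-1826482: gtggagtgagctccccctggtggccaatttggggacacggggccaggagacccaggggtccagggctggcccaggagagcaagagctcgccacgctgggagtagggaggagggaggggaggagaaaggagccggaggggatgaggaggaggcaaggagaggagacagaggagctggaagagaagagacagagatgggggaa
In the first of these the capitals are a match to the CTCF consensus, and in the second they are ATCAAT read on the minus strand.

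A region was counted as gained when both I-BET151 lists and neither DMSO list called it, and as lost in the reverse case. At the ONECUT genes 9 of 34 regions were gained (26.5%, against 17.0% of all regions in the genome) and 1 was lost (2.94%, against 2.37%). ONECUT1 had 4 gained regions and the lost one, ONECUT2 had 3 gained and ONECUT3 had 2. All 4 lists called 6 regions (1, 4 and 1 at the 3 genes), where 15.6% of all regions were called in every list. A further 12 regions, 2 at ONECUT2 and 10 at ONECUT3, were called in 1 list only (35.3%, against 51.8% of all regions). Of the 34 regions DMSO replicate 1 called 20, DMSO replicate 2 called 9, I-BET151 replicate 1 called 20 and I-BET151 replicate 2 called 25. Of all regions of the genome these lists called 47.9%, 22.9%, 49.2% and 67.7%, so there too DMSO replicate 2 called the fewest and I-BET151 replicate 2 the most. No test was made on these counts. Leaving out DMSO replicate 2 left 9 gained regions and raised the lost regions from 1 to 8, 6 of them at ONECUT3, which was 24.2% of the members against 20.9% of all regions. Leaving out DMSO replicate 1 gave 14 gained regions (51.9%, against 26.8% of all regions) and 2 lost (7.41%, against 4.56%). Without I-BET151 replicate 1 there were 13 gained (38.2%, against 43.7% of all regions) and 1 lost (2.94%, against 2.75%). Without I-BET151 replicate 2 there were 11 gained (31.4%, against 35.8%) and 2 lost (5.71%, against 5.82%).

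**Figure D1:**
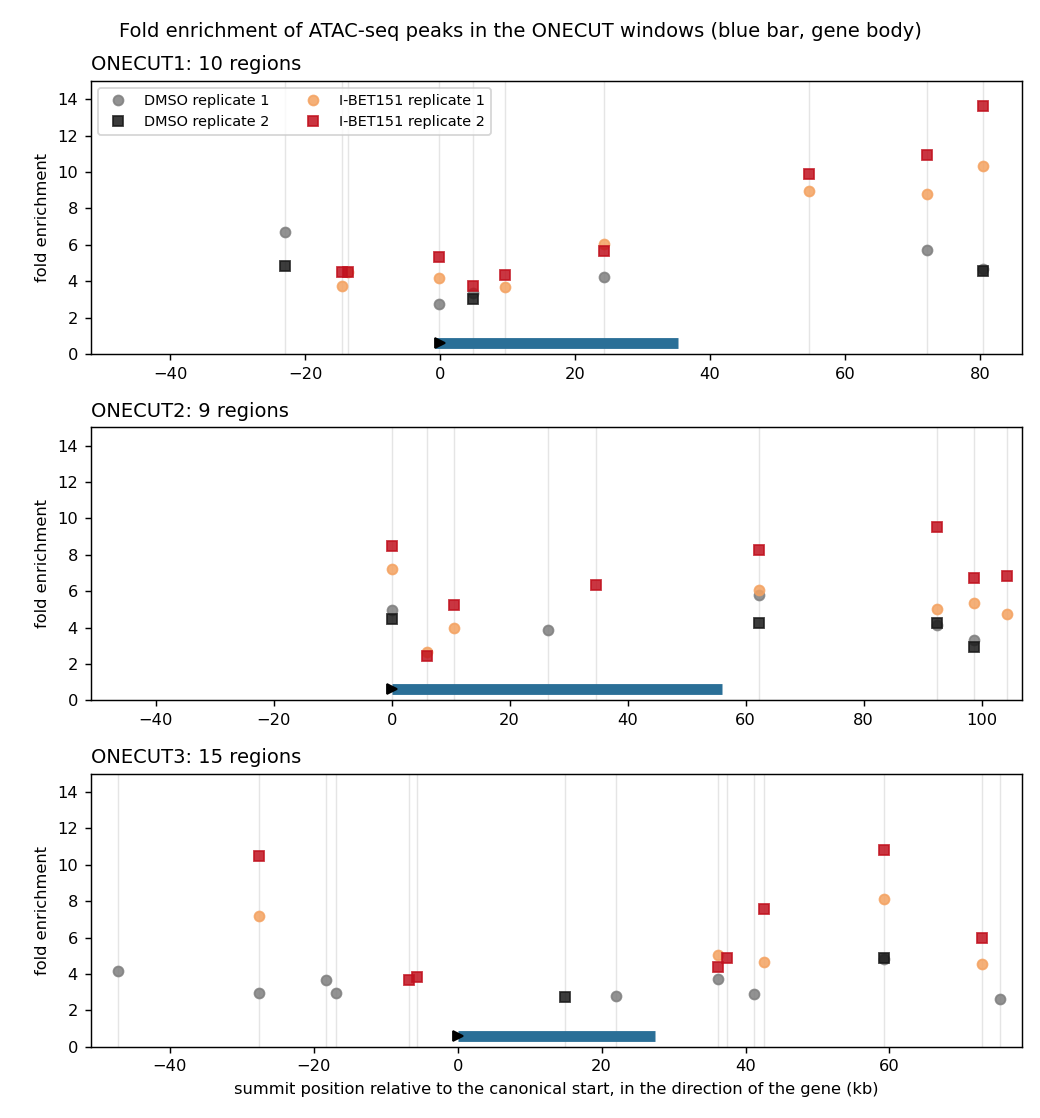
Fold enrichment of each called peak (vertical axis, ratio to the local background) against the position of the region's summit relative to the canonical start, in kb in the direction of the gene, for the 4 libraries; the blue bar is the gene body, grey lines mark every region, and near-equal values overlie each other. At ONECUT1 the highest folds lie beyond the 3′ end of the gene, where I-BET151 values reach 13.6, while no peak lies over the start of ONECUT3.

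ONECUT1 (ENSG00000169856, chr15:52755053-52791078, minus strand, 2 exons) had its start covered by a modest peak that was stronger in both I-BET151 lists. The promoter region (chr15:52789770-52790736) has its summit 188 bp before the canonical start. Its fold enrichment over the local background was 2.75 in DMSO replicate 1, 4.19 in I-BET151 replicate 1 and 5.31 in I-BET151 replicate 2, and it was not called in DMSO replicate 2. The percentile of a region, its rank by fold within a list with 100 as the strongest, was 3.94 in DMSO replicate 1 and 20.3 and 38.5 with I-BET151. The promoter peak was thus among the weakest of the DMSO list that called it and in the lower part of both I-BET151 lists. The pileup was 25 reads in DMSO replicate 1 and 25 and 44 reads with I-BET151 (exact 95% Poisson intervals 16.2 to 36.9 and 32.0 to 59.1, which cover counting error only). Since DMSO replicate 2 did not list it, no ratio of group means is given.

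The 4 gained regions at ONECUT1 differed in strength. The strongest (chr15:52735365-52735872) is intergenic, 54609 bp downstream of the start and beyond the 3′ end of the gene. It had folds of 8.97 and 9.88 and pileups of 20 and 30 reads in I-BET151 replicates 1 and 2. Its percentiles of 83.8 and 83.5 were nearly equal in the 2 libraries and far above those of the other gained regions of the gene, and its mean fold lay above 94.6% of the 27885 gained regions of the genome. A weaker one (chr15:52780559-52780972) lies in intron 1, 9574 bp into the gene, with folds of 3.65 and 4.33 and percentiles of 7.55 and 19.8. The last 2 lie upstream in a long non-coding RNA gene, ENSG00000259203. One (chr15:52803741-52804279) is in its intron 2 with folds of 4.48 and 4.53. The other (chr15:52804643-52805081) covers its first exon and start, 14538 bp from the ONECUT1 start, with folds of 3.71 and 4.50. Their percentiles in I-BET151 replicate 2 were 24.8 and 24.5, so apart from the distal region the gained peaks were of low rank in their lists. Across the 9 gained members of all 3 genes the median of the mean folds was 4.61, against 5.77 over all gained regions of the genome.

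The lost region (chr15:52813204-52813590) is intergenic, 23007 bp upstream of the ONECUT1 start. Its fold was 6.73 in DMSO replicate 1 and 4.81 in DMSO replicate 2, at percentiles of 92.7 and 67.8, with pileups of 25 and 19 reads. Neither I-BET151 list called it. Its mean fold of 5.77 was above that of 98.5% of the 3896 lost regions of the genome, whose median was 3.59.

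The highest folds in the ONECUT1 window belonged to a region at the neighboring gene ATOSA (chr15:52709404-52710275), an intergenic site by the canonical transcripts that holds an alternative start of ATOSA, 80379 bp from the start of ONECUT1. Its fold was 4.68 and 4.58 with DMSO and 10.3 and 13.6 with I-BET151, a ratio of means of 2.59, and its pileup was 21 and 22 reads against 30 and 66. In fold and pileup the 2 groups did not overlap. The share of all regions whose raw pileup separates the groups in this way was not computed. Folds were likewise higher in both I-BET151 libraries at 90.1% of all regions called in every list, where the median ratio was 1.79. In DMSO the highest mean fold of a region called in both lists was that of the lost region. Of the remaining 3 regions, 2 were called in every list but DMSO replicate 2, with folds of 5.72 and 4.25 in DMSO replicate 1 and of 5.63 to 10.9 with I-BET151. The other, in intron 1 at 4962 bp, was called in every list but I-BET151 replicate 1, at folds of 3.35, 3.01 and 3.75.

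ONECUT2 (ENSG00000119547, chr18:57435374-57491298, plus strand, 2 exons) was the only family member whose start was covered in all 4 lists. The promoter region (chr18:57434935-57435632) has its summit 41 bp after the start, in the 5′ UTR of exon 1. Its fold was 4.99 and 4.48 with DMSO and 7.24 and 8.48 with I-BET151, a ratio of means of 1.66, and the pileup was 45 and 43 reads against 51 and 97. The folds of the groups did not overlap, as at 90.1% of all regions called in every list. The percentiles did overlap, at 79.2 and 60.8 with DMSO and 71.4 and 74.7 with I-BET151. In fold the promoter was higher with I-BET151, and in rank within each list it held about the same place.

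The 3 gained regions at ONECUT2 were 2 in intron 1 and 1 distal. Those in the intron lie 6067 bp (chr18:57440998-57441623) and 10510 bp (chr18:57445691-57446306) after the start. The first had folds of 2.63 and 2.41, the lowest of any gained member, and stood at the bottom of both lists with percentiles of 0.0235 and 0.0957. The second had folds of 3.96 and 5.26 and pileups of 21 and 47 reads. The distal one (chr18:57539476-57540020) is intergenic, 104283 bp after the start and 47045 bp from the start of FECH, with folds of 4.76 and 6.86 and percentiles of 34.8 and 60.03. No ONECUT2 region was lost. The only other region of the gene body called with DMSO, in intron 1 at 26493 bp, was called in replicate 1 alone at a fold of 3.88, and a further one at 34676 bp was called in I-BET151 replicate 2 alone at 6.32.

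Beyond the 3′ end of ONECUT2, 3 intergenic regions were called in every list. The nearest (chr18:57497277-57498364, 62321 bp after the start) had the highest mean fold of the window with DMSO, 5.80 and 4.23 in the 2 replicates, against 6.07 and 8.26 with I-BET151. The next (chr18:57527647-57528271) went from 4.12 and 4.23 to 5.05 and 9.53, and its percentile of 39.5 in I-BET151 replicate 1 was below both DMSO values while that of 81.5 in replicate 2 was above both. The last (chr18:57533305-57534858) went from 3.30 and 2.94 to 5.36 and 6.72, with percentiles of 22.8 and 9.31 against 47.4 and 57.8. Among the ONECUT2 regions called in all 4 lists it was the only one whose percentiles separated the groups. Over the genome 40.8% of the regions called in every list had higher percentiles in both I-BET151 libraries.

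**Figure D2:**
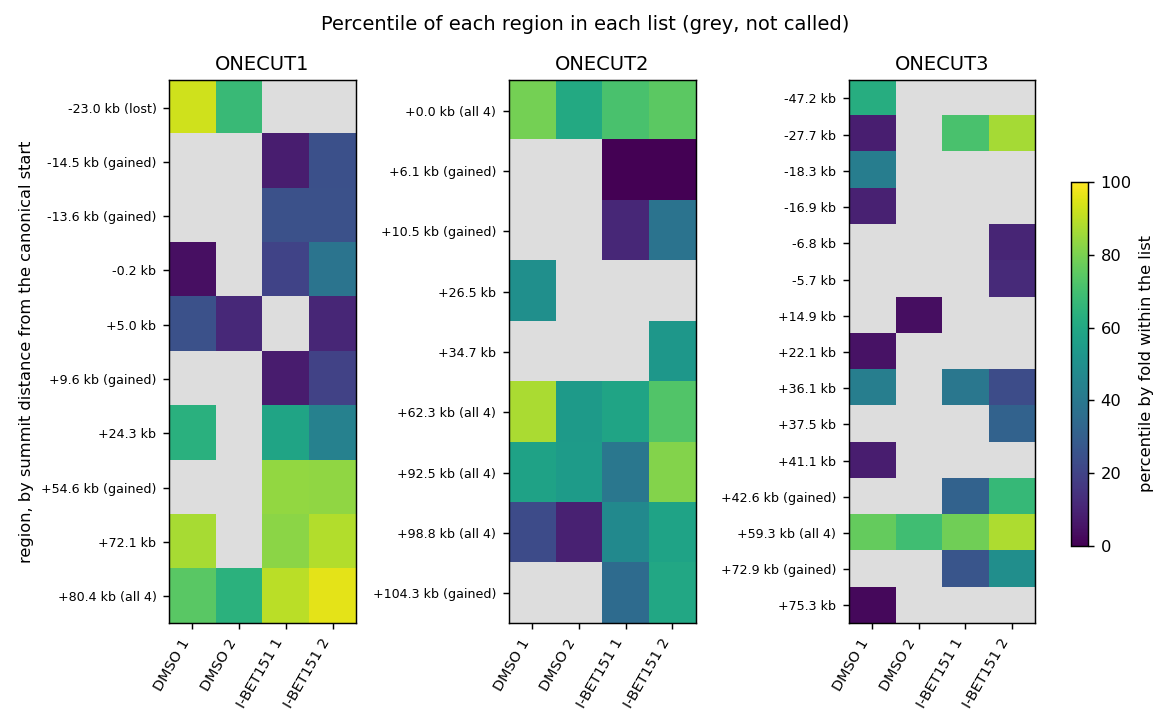
Percentile by fold of each region (rows, ordered by the distance of the summit from the canonical start) in each of the 4 lists (columns), with grey for a region that a list did not call. The DMSO replicate 2 column holds the most grey cells, with 9 of 34 regions called, and most ONECUT3 rows hold a value in 1 list only.

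ONECUT3 (ENSG00000205922, chr19:1753506-1780988, plus strand, 2 exons) had the most regions and the fewest that recurred between libraries. No list called a peak over its start. Within its gene body there were 2 regions, each called in 1 DMSO list only. One lies in intron 1, 14868 bp after the start (fold 2.73 in DMSO replicate 2), and the other in the 3′ UTR of exon 2 (fold 2.80 in DMSO replicate 1). Of the 15 regions 6 were called in DMSO replicate 1 only, 1 in DMSO replicate 2 only and 3 in I-BET151 replicate 2 only. Their folds ranged from 2.64 to 4.88.

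The stronger regions of the ONECUT3 window lay outside the gene. An intergenic one 27669 bp upstream (chr19:1725421-1726130) had a fold of 2.93 in DMSO replicate 1, was not called in DMSO replicate 2, and reached 7.21 and 10.5 with I-BET151, at percentiles of 8.33 against 71.2 and 86.4. This was the widest gap between the groups of any ONECUT3 region with a DMSO call. A region in coding exon 23 of ATP8B3 (chr19:1789542-1790108), called in every list but DMSO replicate 2, had folds of 3.70 in DMSO replicate 1 and 5.05 and 4.38 with I-BET151. Both gained regions lie in neighboring genes on the far side of ONECUT3. One (chr19:1795785-1796548) has its summit in intron 17 of ATP8B3, with folds of 4.68 and 7.55. The other (chr19:1826190-1826724) is in intron 2 of REXO1, with folds of 4.55 and 5.98. The only other protein-coding gene whose canonical start falls in one of the windows is ATP8B3, which codes for a phospholipid-transporting ATPase. The only region of the ONECUT3 window called in all 4 lists (chr19:1812318-1813308) lies 499 bp upstream of that start. It had the highest I-BET151 mean of the regions called in both I-BET151 lists, and no other region was called in both DMSO lists. Its fold was 4.83 and 4.89 with DMSO and 8.10 and 10.8 with I-BET151, and its pileup 53 and 52 against 34 and 101 reads. The folds did not overlap, as at 90.1% of all regions called in every list, whereas the pileup in I-BET151 replicate 1 was below both DMSO values.

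**Figure D3:**
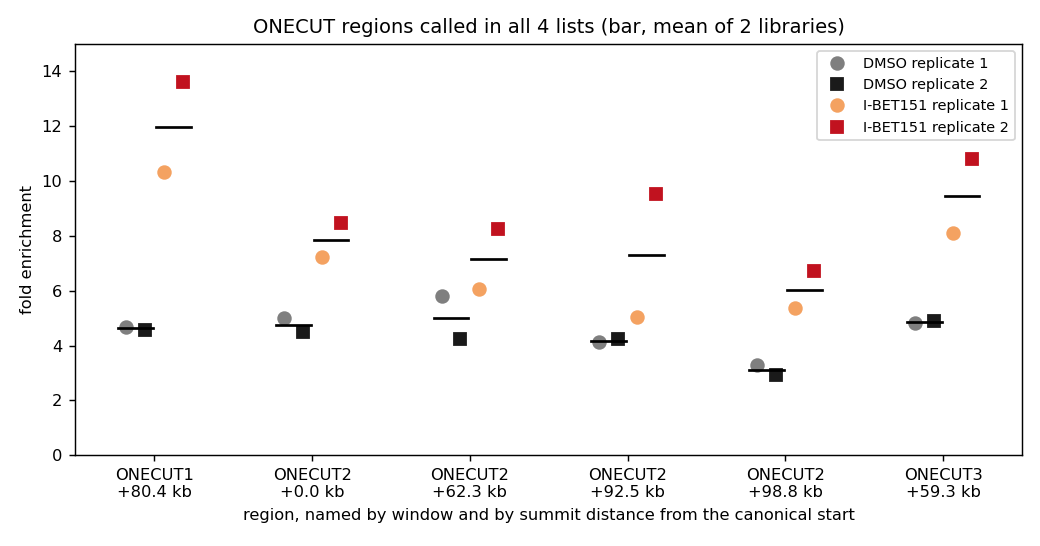
Fold enrichment (vertical axis, ratio to the local background) of the 6 regions called in every list, with 1 point for each of the 4 libraries and a bar at the mean of each group. Every I-BET151 point lies above both DMSO points of its region, as at 90.1% of all regions called in every list. The narrowest gap is at the ONECUT2 region 62321 bp after the start (5.80 in DMSO replicate 1 and 6.07 in I-BET151 replicate 1).

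For the 6 regions called in every list each I-BET151 fold exceeded each DMSO fold, as it did in 90.1% of all 25627 regions called in every list. The ratios of means ran from 1.43 to 2.59 with a median of 1.84, and the median over all those regions was 1.79. By percentile within each full list, 3 of the 6 had percentiles in both I-BET151 libraries above both DMSO libraries, against 40.8% of all such regions. Limma was run on normal scores of the ranks among the shared regions, a scale that removes a shift common to a library, and called 0 of the 6 higher (3.41% of all shared regions were called) and 0 lower (1.96%) at an adjusted p under 0.05. At an unadjusted p under 0.05 it called 1 of the 6, against 24.9% of all shared regions. That was the ATOSA region of the ONECUT1 window, whose rank shift was 0.90 ± 0.39 normal score units (SE, n = 2 per group, limma adjusted p = 0.16). With only peaks at a −log10 p of at least 10 in each list, this region passed (rank shift 1.40, limma adjusted p = 0.026). It was 1 of 3 members tested there, where 840 of 13209 shared regions were called higher and 594 lower. Over the other alternatives with all 4 libraries its limma adjusted p ranged from 0.11 with equal numbers of peaks to 0.24 with the replicate block. Leaving out 1 library gave it rank shifts of 0.68 to 1.11. The ONECUT2 promoter had a rank shift of −0.32 ± 0.38 (SE, n = 2 per group, limma adjusted p = 0.63), lower with I-BET151 on this scale while its percentile among all peaks of the lists was 3.12 higher. The ONECUT2 region at 62321 bp had −0.69 ± 0.39 (SE, n = 2 per group, limma adjusted p = 0.29). Without I-BET151 replicate 2 the peaks there formed 2 merged regions, with rank shifts in opposite directions (−1.41 and 0.75). That setting leaves 1 I-BET151 library, so only the sizes of the shifts are given.

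The pileup per M reads placed these regions in another order. Over all shared regions the median log2 change from DMSO to I-BET151 was 1.57 in the replicate 1 libraries and 2.25 in the replicate 2 libraries, and 97.9% and 99.5% of the regions were higher. The shift depends on the estimated reads, so members are given relative to that median. The ATOSA region was 0.58 and 0.53 above it and the ONECUT2 promoter 0.24 and 0.12 above it. The 3 distal ONECUT2 regions were below it in both comparisons, at −1.31 and −0.30 for the nearest, −0.86 and −0.47 for the next and −0.45 and −0.32 for the last. The region near ATP8B3 was at −0.58 and −0.095. In the last ONECUT2 region the DMSO libraries had a local background of 5.36 and 5.47 reads and the I-BET151 libraries of 1.80 and 3.61 reads, beside a pileup of 20 and 18 against 14 and 30 reads. At the ONECUT2 promoter it was 8.22 and 8.82 against 6.18 and 10.5 reads. Of the member regions called in every list, the promoter and the ATOSA region were those whose pileup changed by more than the median region in both comparisons. The change at the ATOSA region exceeded that of 86.4% and 93.5% of all shared regions, and at the promoter that of 66.1% and 62.6%. The share of all shared regions above the median in both comparisons was not computed.

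**Figure D4:**
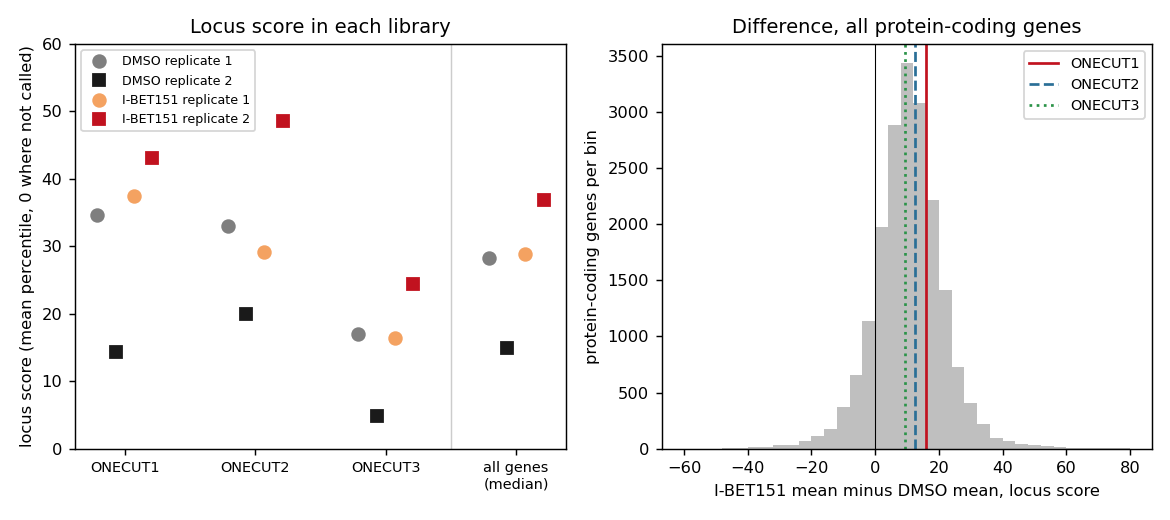
Left, locus score (mean percentile of the regions in the window, 0 where a list did not call one) of each ONECUT gene in each of the 4 libraries, beside the median over all protein-coding genes. Right, number of protein-coding genes (vertical axis) by the difference of the group means, with lines at 15.8 for ONECUT1, 12.5 for ONECUT2 and 9.50 for ONECUT3; all 3 lie in the body of the distribution, whose median is 10.5.

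A locus score, the mean percentile of all regions of a window with 0 for a region that a list did not call, summarises each gene in each library. For ONECUT1 it was 34.6 and 14.3 with DMSO and 37.5 and 43.0 with I-BET151. Both I-BET151 values were above both DMSO values, a difference of 15.8 between means of 24.5 ± 14.4 and 40.3 ± 3.90 (SD, n = 2, two-sided exact permutation p = 0.33, the smallest that 2 against 2 libraries allow). The replicate 1 libraries differed by only 2.90 and the replicate 2 libraries by 28.7. The share of all genes whose scores separate the groups in this way was not computed. For ONECUT2 it was 33.0 and 19.9 against 29.2 and 48.7, a difference of 12.5 (two-sided exact permutation p = 0.67). For ONECUT3 it was 17.1 and 4.88 against 16.5 and 24.5, a difference of 9.50 (two-sided exact permutation p = 0.67). In ONECUT2 and ONECUT3 the replicate 1 libraries differed by −3.82 and −0.61 and the replicate 2 libraries by 28.7 and 19.6, so the groups overlapped. ONECUT3 was the lowest of the 3 in every library. ONECUT1 was higher than ONECUT2 in both replicate 1 libraries and lower in both replicate 2 libraries. No test was made between the genes.

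The whole genome moved in the same direction. Over 19334 protein-coding genes with a region in the same window the median difference in locus score was 10.5, and 86.3% of the genes were higher with I-BET151. The ONECUT1 difference was above that of 71.8% of these genes, ONECUT2 above 58.5% and ONECUT3 above 45.2%. When each list was limited to its 38295 strongest peaks, the median over all genes was −0.21, and the differences were 3.84 for ONECUT1, −18.1 for ONECUT2 and 10.6 for ONECUT3. With the window narrowed to 5 kb around the gene, ONECUT3 had a difference of −2.23, since its start and gene body held no I-BET151 peak.

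Base composition and motif matches were read from the sequence around each summit. Within 100 bases of the summit the median GC content was 49.8% at ONECUT1, 46.8% at ONECUT2 and 65.2% at ONECUT3, against 47.8% over all regions and 45.3% over all gained regions. These windows were searched on both strands for the core of the ONECUT motif, written as ATCGAT in its first form and as ATCAAT in its second. They were also searched for TGTTTAC as 1 form of the FOXA motif, for AGATAA as 1 form of the GATA motif, and for the CTCF consensus. A ONECUT core was present in 4 of 34 regions (11.8%, against 9.74% of all regions and 13.8% of all gained regions). Of these, 1 was the gained region in intron 1 of ONECUT1, with a match starting 25 bases from the summit. Another was the ONECUT2 region 92453 bp after the start, and the other 2 lie upstream of ONECUT3, among them the region 27669 bp upstream with ATCGAT 90 bases from its summit. The CTCF consensus was matched in 1 region, the strongest gained region of ONECUT1, at 56 bases from the summit (1.86% of all regions and 4.13% of gained regions held it). No member window held the exact letters TGTTTAC or AGATAA, which were present in 4.57% and 14.2% of all regions. Other forms of the FOXA and GATA motifs and inexact matches to the CTCF consensus were not searched, so their absence is not shown. Neither promoter stretch held any of the searched forms, where the second ONECUT core was present in 5.58% and AGATAA in 9.17% of all promoters. A match is a stretch of letters and does not show binding.

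Other genes of the same network, in windows of the same size, are given by counts beside the ONECUT regions. At 13 progenitor factors 28 of 183 regions were gained (15.3%) and 3 were lost, and the locus score was higher with I-BET151 at 13 of 13, by a median of 10.3. The pancreas and endoderm factors PDX1, SOX9, FOXA1 and FOXA2 differed by 14.0, 14.7, 4.44 and 10.4. At 6 endocrine factors 9 of 55 regions were gained (16.4%) and 2 were lost, and the score was higher at 5 of 6, with 6.76 at NKX2-2, 27.0 at ISL1 and 26.0 at RFX6 against −1.57 at INSM1, which held both lost regions. At 4 liver and bile duct genes 16 of 79 regions were gained (20.3%) and 2 were lost, with differences of 16.0 at TTR (transthyretin), 7.47 at G6PC1 (glucose-6-phosphatase), 28.7 at SPP1 (osteopontin) and 12.8 at PKHD1 (fibrocystin). At 3 other homeobox genes with cut-type domains 13 of 99 regions were gained (13.1%) and 6 were lost, with differences of 8.12 at CUX1, 1.65 at CUX2 and 3.34 at SATB1. The differences of the 3 ONECUT genes (9.50 to 15.8) lay within the range of the progenitor, endocrine and liver lists and above the highest of the last list.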

How the data were processed

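ATAC-seq peak lists of pancreatic progenitors given DMSO or I-BET151 (2 libraries per group) were analysed, with groups and replicate numbers from the sample labels. Reads were mapped by the authors with Bowtie2 (v2.2.5) on hg38, duplicate and mitochondrial reads were discarded, and MACS2 (v2.1.2) was run on each library. Their methods state a p-value threshold of 1e-05 and a read extension of 200 bp. The deposited lists reach a q-value of 0.05, and the shortest peak was 200, 233, 200 and 256 bp in DMSO 1 and 2 and I-BET151 1 and 2. Why it exceeded the stated extension in the replicate 2 lists is not given in the sources used here. Each deposited list gives, per peak, a fold enrichment (the ratio of the summit's pileup to its background), −log10 of the p-value and q-value, a score (10 times −log10 q, not used) and the summit position.

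Peaks on the autosomes, X and Y were merged at an overlap of 1 bp. The pileup and background in reads were solved from the fold, (pileup + 1)/(background + 1), and its Poisson p-value, which succeeded for 100% of peaks. Reads per library were estimated from the genome-wide background, a genome size of 2.7e+09 and the shortest peak as extension. Rank shifts were fitted with limma 3.58.1 in R 4.3.3, with lmFit and eBayes run on ranks within each list turned into normal scores, and p-values were adjusted by Benjamini-Hochberg over the 25627 regions called in all 4 lists. In simulated data of 25000 regions, 200 of 200 changed ones were called with 6 other calls, and 0 when none was changed. The planted shifts were large against the simulated noise, so this checks the steps and does not measure the power for the member regions. Locus scores were compared by exact permutation tests. Other steps used pandas 2.3.3, scipy 1.17.1 and numpy 2.4.6 under Python 3.11.15, with genes from GENCODE release 44 and promoter sequences from RefSeq (GRCh38.p14), in which ONECUT1 and ONECUT2 matched. Every peak fell within the hg38 chromosomes. The members, the gene lists and the tests were chosen with earlier results of these data known. Some items of these lists are not reported here and were left out of their counts. Regions described in full were those over a canonical start, gained, lost or called by limma, and the one of highest mean fold per window and group. The ONECUT2 regions beyond the gene and the ONECUT3 region 27669 bp upstream were added after their values were seen.

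Same-numbered libraries did not deviate together over the shared regions (correlation −0.14), so the replicate number was not used as a block. Alternatives were peaks at a −log10 p of at least 10 or 5, equal numbers of peaks, an overlap of 50% of the shorter peak, a flank of 5 kb, ranks by −log10 p, centred log2 pileup per M reads (computed here from the deposited columns), regions called in all 4 lists only, each library left out in turn, and the replicate block. Other assays of the study were not analysed here.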

Additional observations from a re-analysis of the deposited data

How the results depend on the processing

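The locus score difference of ONECUT1 kept its direction under every alternative, from 3.84 with equal numbers of peaks to 26.0 without DMSO replicate 1. That of ONECUT2 was −18.1 with equal numbers of peaks and that of ONECUT3 was −2.23 with a flank of 5 kb. Each kept its direction in the other 11 settings. For all 3 genes these settings include the replicate block, which could not change the difference. Leaving out 1 library gave 5.66 to 26.0 for ONECUT1, 4.97 to 22.2 for ONECUT2 and 3.64 to 26.0 for ONECUT3, and leaving out either DMSO library (or, for ONECUT2, any library) moved the value by over 1.5 times. At a −log10 p of at least 10, 4 members were gained (20%, against 23.3% of all regions) and 0 lost (0.269% of all regions). There 1 of the 9 kept its call, the distal ONECUT1 region, since the other 8 had a −log10 p of 4.55 to 8.44 in I-BET151 replicate 1. With equal numbers of peaks 3 were gained (18.8%, against 9.19%) and 2 lost (12.5%, against 5.85%), and the same 1 of 9 kept its call. With a flank of 5 kb 3 were gained (27.3%, against 17.0%) and 0 lost (2.37% of all regions). Leaving out 1 library gave 9 to 14 gained and 1 to 8 lost. The gained share was above that of all regions with DMSO replicate 1 or 2 left out (51.9% against 26.8% and 27.3% against 18.3%). It was below it with I-BET151 replicate 1 or 2 left out (38.2% against 43.7% and 31.4% against 35.8%). A gained region stays gained by definition when a list is left out, so these settings could not have removed any of the 9. The lost ONECUT1 region kept its call in every setting that kept it in the window, except at a −log10 p of at least 10. With a library left out this too was fixed by the definition. Without I-BET151 replicate 2 the ONECUT2 region at 62321 bp was split in 2, with rank shifts of opposite sign (−1.41 and 0.75). At a −log10 p of at least 10 limma called 1 of the 3 members tested higher. In that setting it called 840 of 13209 shared regions higher and 594 lower. Over all shared regions it called 875 higher and 503 lower, 8 and 27 by ranks of −log10 p, 174 and 1188 on centred log2 pileup, and 117 to 1777 and 119 to 1707 when 1 library was left out, where the lone library is assumed to vary like the others. No member was called by ranks of −log10 p or on centred log2 pileup. With the replicate number as a block there were 985 and 652 calls and 0 members. With the numbers crossed, an alternative chosen after seeing the data, there were 1985 and 1567 calls and 0 members. In this balanced layout the block cannot change a locus score difference, which stayed at 15.8, 12.5 and 9.50. Except where a cause is given, the cause was not tested. A pileup of 8 to 101 reads per member summit carries counting error that the SD of 2 libraries does not hold, and the lists show nothing below their thresholds.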
